A study of Mus musculus with 8 samples.

Results

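The genes described here lie on mouse chromosome 9 around Wdr72, the gene ablated in this study. They were chosen by position, as rows of the deposited count table within 5 Mb of either end of Wdr72 (69110356 to 79283308), and by read number, with at least 10 reads in at least 4 of 8 libraries. Of 252 rows in that window 75 were kept, out of 54532 rows in the whole table. AI593442, 21.4 Mb before Wdr72 on the same chromosome, was added to make 76. It was selected on its difference between the same 2 groups, so its values are a description and carry no test. For the 75 flanking genes position and read number made the choice, and none was kept with 10 reads in the libraries of 1 group alone. Unc13c came closest to that, reaching 10 reads in all 4 KO libraries and in 1 WT library.

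RNA was sequenced from first molars of mouse pups after the pulp had been removed. The control group (WT) was C57BL/6 wild type, with 4 libraries numbered 2, 3, 4 and 5. The other group (KO) was Wdr72-/-, with 4 libraries numbered 1, 3, 4 and 5. The Wdr72-/- colony came from the UC Davis Mouse Biology Center, both colonies were kept at UCSF, and no treatment, transgene or Cre is named. Their age is stated as postnatal day 12 in one label and as day 13 where dissection is described. The labels call the sample enamel organ cells and ameloblasts, but the remaining molar was homogenised whole. All 9 ameloblast markers, Wdr72 itself among them, were measured, at a summed 53300 to 97700 CPM in WT and 59400 to 81000 CPM in KO. CPM is a gene's read count scaled to a common library size. Listed as markers of odontoblasts, the dentin-forming cells, were Dspp, Dmp1, Phex, Smpd3, Ifitm5 and Bglap, whose specificity was not tested. These 6 were also measured, at a summed 12400 to 24400 CPM in WT and 12100 to 21800 CPM in KO. Nothing states whether a library is 1 pup or a pool, so the tests see only library-to-library spread, which may be technical.

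Genes that lie close together on a chromosome are inherited together, because recombination between neighbours is rare. A mouse made homozygous for an engineered allele is therefore usually homozygous for the stretch of chromosome around it as well. Neighbouring genes can also share enhancers and chromatin domains, although most genes in such a window have unrelated functions. The stretch around Wdr72 holds, among others, myosins and actin-capping proteins, a retinoic acid synthase, a translation elongation factor and several transcription factors.

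Wdr72 itself (chromosome 9, 74110356 to 74283308 on GRCm38) was at 173, 245, 327 and 227 CPM in WT 2, 3, 4 and 5. In KO 1, 3, 4 and 5 it was at 102, 37.8, 24.9 and 15.8 CPM. The groups did not overlap, and KO 1 kept the highest level among the KO libraries. The log2 fold change, KO minus WT, was -2.43 (SE 0.47, adjusted p = 0.080 in edgeR), and -3.21 without KO 1 (adjusted p = 0.012).

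None of the flanking genes passed the test. Of the 75, 74 entered the fit over 16205 genes, and 0 had an adjusted p under 0.05 in edgeR, where 0.0309% of all genes did. At an unadjusted p under 0.05 there were 3 higher and 8 lower in KO among the 74. Over all genes tested those shares were 8.7% higher and 6.98% lower. DESeq2 called 1 flanking gene (2.93% of all genes with an adjusted p) and limma voom called 4 (6.57% of all genes). The groups did not overlap for 2 genes that were higher in KO (5.5% of all genes) and 7 that were lower (5.44% of all genes). Together these 9 were 12.2% of the flanking genes, against 10.9% of all genes tested and 12.1% of the other 836 genes of chromosome 9.

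The median log2 fold change over the 74 was -0.038, with 35 higher and 39 lower, and over all genes tested it was 0.021. The median size regardless of direction was 0.23, against 0.19 over all genes and 0.21 over the other genes of chromosome 9. Differences above 0.5 in size occurred in 14 flanking genes (18.9%), against 12.2% of all genes tested. Among the coding genes they were 6 of 59 (10.2%), against 10.1% of all coding genes. Among the 15 tested genes that do not code for protein they were 8 (53.3%), against 27.8% of all such genes. Those 15 had a median level of 1.53 CPM, against 29.1 CPM for the 59 coding genes. Across the 74 genes, size was smaller at higher level (Spearman's rho -0.45, Pearson's r -0.30), as a description over genes that share the same libraries.

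The median size of the differences did not rise towards Wdr72. Within 1 Mb there were 6 tested genes, with a median size of 0.18. From 1 to 2.5 Mb the median size was 0.25 over 34 genes, and from 2.5 to 5 Mb it was 0.19 over 34 genes. Genes whose groups did not overlap numbered 0, 4 (11.8%) and 5 (14.7%) in these bands, from nearest to farthest, against 10.9% of all genes tested. An unadjusted p under 0.05 in edgeR occurred in 2 of 6, 5 of 34 and 4 of 34 genes (15.7% of all genes tested). In the same bands voom called 2, 0 and 2 genes (6.57% of all genes tested). The 2 voom calls among the 6 nearest genes were Unc13c and Myo5c. Unc13c met the read minimum mostly through the KO group, so its p is no independent support. The correlation of size with distance was 0.00091 (Pearson) and -0.067 (Spearman) over the 74 genes. The 40 genes before Wdr72 stood at a median of -0.080 on the log2 scale, and the 34 after it at 0.0056. Farther along chromosome 9, the median was 0.0087 over 66 genes at 5 to 10 Mb, 0.044 over 137 genes at 10 to 20 Mb and 0.0095 over 633 genes beyond.

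**Figure D1:**
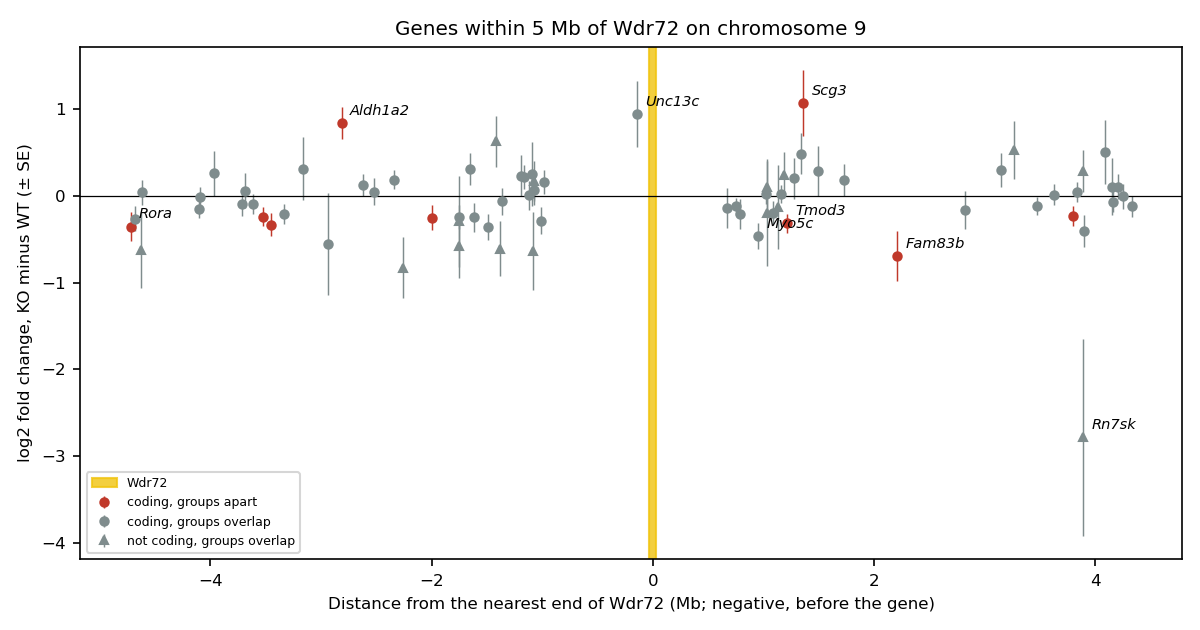
Log2 fold change, KO minus WT, with its SE (vertical axis) against distance from the nearest end of Wdr72 in Mb (horizontal axis, negative before the gene) for 74 flanking genes. Red marks the 9 genes whose KO and WT libraries did not overlap, and triangles the genes that do not code for protein; most points lie near 0 at every distance, and Rn7sk is the lowest at -2.78.

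The members higher in every KO library than in every WT library were AI593442, Aldh1a2 and Scg3. The 120 bases before the RefSeq start of each are printed 5′ to 3′ on the gene's strand (build GRCm38.p6), to show how their promoters differ in CpG, the dinucleotide at which mouse DNA is methylated. Capitals mark each CG. The stretches are chr9:52679438-52679557 (minus strand), chr9:71215669-71215788 (plus strand) and chr9:75684057-75684176 (minus strand).
AI593442: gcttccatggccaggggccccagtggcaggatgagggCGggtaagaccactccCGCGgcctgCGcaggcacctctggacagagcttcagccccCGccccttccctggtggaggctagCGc
Aldh1a2: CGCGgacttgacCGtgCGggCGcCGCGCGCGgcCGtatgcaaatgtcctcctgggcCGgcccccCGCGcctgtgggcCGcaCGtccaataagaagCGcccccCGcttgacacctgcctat
Scg3: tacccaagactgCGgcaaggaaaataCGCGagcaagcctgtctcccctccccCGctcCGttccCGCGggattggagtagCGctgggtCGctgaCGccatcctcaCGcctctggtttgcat
These stretches held 6, 17 and 11 CpG. In the whole RefSeq window of 300 bases, 250 before and 50 after the start, there were 12, 50 and 18 CpG. The RefSeq start of AI593442 lay 343 bases inside the gene as the deposited table gives it, and the other starts matched the table.

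RefSeq windows of 300 bases were matched by symbol for 57 of the 76 members, 53 of them coding. Over the 56 flanking genes among them the median was 20.5 CpG, and 83.9% had 10 or more. Over 1 window for each of 11743 genes tested here the median was 20, and 76.9% had 10 or more. For a flanking gene the window was the one whose start lay nearest the gene's start in the deposited table. For the tested genes it was the window lowest on the chromosome, so these shares rest on unlike choices of window. Over all 32851 windows in the table the median was 7 CpG. The TATA motif TATAAA, on either strand, was in 12.5% of the flanking windows, 7.56% of those of tested genes and 13.6% of all windows. Starts with 10 or more CpG were thus the larger share both in this stretch and among the genes expressed here.

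AI593442 (52673042 to 52679780, minus strand) had the most positive log2 fold change of the members. It was at 2.60, 2.24, 3.32 and 4.97 CPM in WT 2, 3, 4 and 5, and at 7.77, 18.7, 15.7 and 15.6 CPM in KO 1, 3, 4 and 5. All KO values lay above all WT values, and KO 1 was the lowest of the KO group. The KO mean was 4.40 times the WT mean, and 5.08 times without KO 1. These libraries chose the gene, so the log2 fold change of 2.14 (SE 0.30) is a description. KO 1, the library with the most Wdr72 reads, lay 33.4% of the way from the WT mean to the mean of the other KO libraries for AI593442. For Wdr72 it lay 65.1% of the way. Whether the intermediate values of KO 1 in both genes are linked was not tested.

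Aldh1a2 (71215789 to 71296243, plus strand, 2.81 Mb before Wdr72) encodes retinaldehyde dehydrogenase, which makes retinoic acid, a signal in tooth and craniofacial development. It was at 4.87, 3.20, 4.27 and 3.0 CPM in WT 2, 3, 4 and 5, and at 7.49, 6.88, 6.40 and 6.71 CPM in KO 1, 3, 4 and 5. The KO libraries lay close together and all above WT. The log2 fold change was 0.84 (SE 0.19), and the adjusted p was 0.10 in edgeR, 0.0041 in DESeq2 and 0.012 in voom. Across the alternatives adjusted p lay between 0.0041 and 0.55 (the latter with a replicate block), and the log2 fold change between 0.74 and 0.96. With the block the difference rests on the libraries numbered 3, 4 and 5 alone. Marker genes of pulp mesenchyme and fibroblasts were also higher in KO. All 10 had a positive log2 fold change (median 0.67, 0 past the threshold), and their summed level was 19800 to 37400 CPM in WT and 26900 to 43300 CPM in KO, with none at 0. Their part in the Aldh1a2 difference was not tested. In bulk RNA, fewer cells of a type and less RNA per cell cannot be told apart, here or for any gene below.

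**Figure D2:**
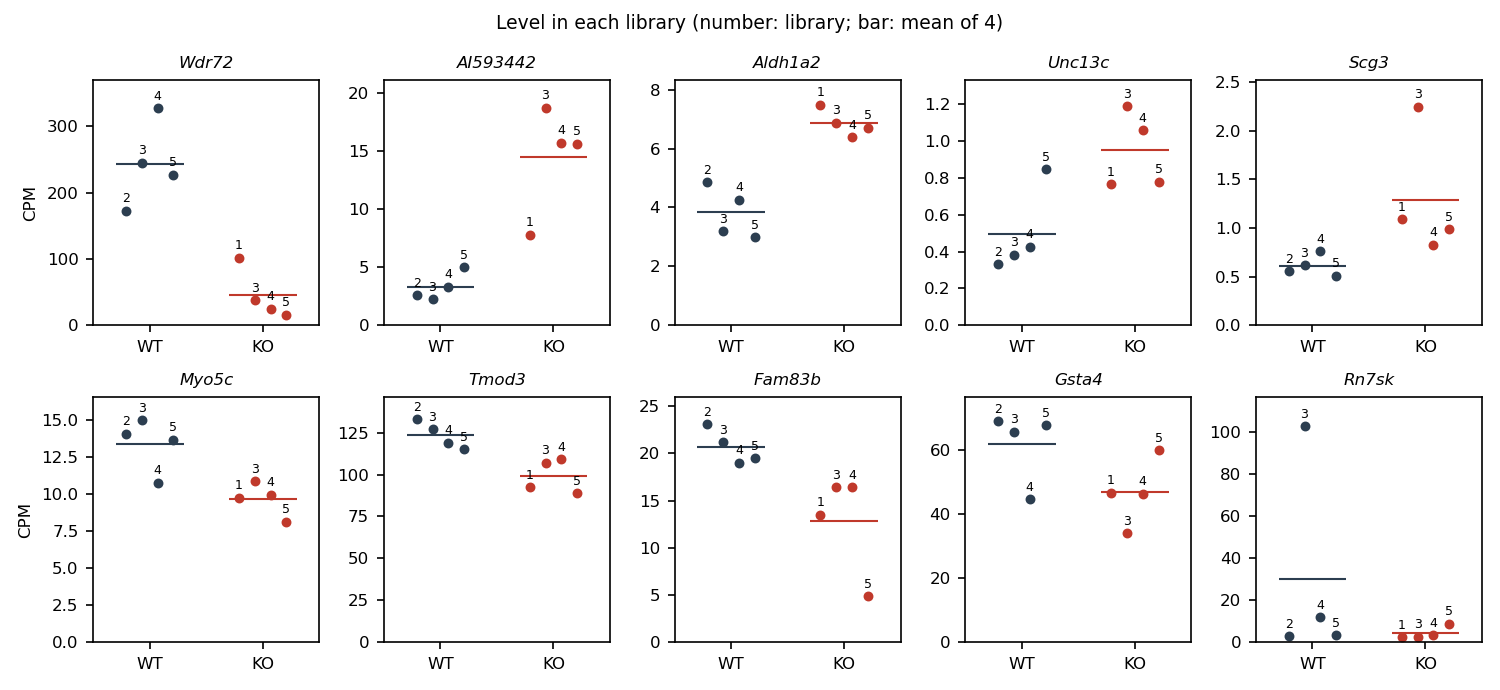
CPM in each library (vertical axes from 0) for Wdr72 and 9 members, with WT in dark blue, KO in red, the library number beside each point and a bar at the mean of 4 libraries. AI593442, Aldh1a2 and Scg3 are higher in every KO library than in every WT library, Tmod3 and Fam83b lower, and the WT mean of Rn7sk rests on WT 3 at 103 CPM.

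Besides Aldh1a2, the metabolism list held 7 tested genes, Mns1 and Fam214a among them. Of these 7, 4 had a positive and 3 a negative log2 fold change (median 0.015). Gsta4, a glutathione transferase that clears products of lipid peroxidation, was at 69.1, 65.8, 44.7 and 67.9 CPM in WT and at 46.7, 34.0, 46.4 and 60.1 CPM in KO 1, 3, 4 and 5. WT 4 lay within the KO range, so the groups overlapped. Its log2 fold change was -0.40 (SE 0.18; adjusted p = 0.31 in edgeR, 0.031 in voom). Gclc, which starts glutathione synthesis, differed by -0.11 (SE 0.10) on the log2 scale, and the fatty acid elongase Elovl5 by 0.015 (SE 0.12). Lipc, a hepatic lipase, and Hmgcll1, a lyase of ketone body metabolism, were at 0.31 (SE 0.36) and 0.18 (SE 0.19). Mns1, a protein of sperm flagella and cilia, was at 0.31 (SE 0.19), and its count is uncertain because Tex9 overlaps it with more reads.

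The nearest gene, Unc13c, 0.141 Mb before Wdr72, encodes a Munc13 protein that primes synaptic vesicles for release. It was at 0.33, 0.38, 0.43 and 0.85 CPM in WT 2, 3, 4 and 5 and at 0.77, 1.19, 1.06 and 0.78 CPM in KO 1, 3, 4 and 5, or 6 to 26 reads per library. WT 5 lay above KO 1 and KO 5, so the groups overlapped. The gene met the read minimum mostly through the KO group, where it was higher, so its p is no independent support. Its log2 fold change was 0.94 (SE 0.38; adjusted p = 0.27 in edgeR, 0.034 in voom). Scg3, a granin of neuroendocrine secretory granules 1.36 Mb after Wdr72, was at 0.55, 0.62, 0.76 and 0.51 CPM in WT and at 1.09, 2.25, 0.83 and 0.99 CPM in KO 1, 3, 4 and 5. KO 3 was the highest, and all KO values lay above WT. Its log2 fold change was 1.07 (SE 0.38, adjusted p = 0.23 in edgeR), and 0.65 without KO 3.

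Both genes are known from neurons, and the nerve and Schwann cell markers stood higher in KO as well. All 5 of those had a positive log2 fold change (median 0.65, 0 past the threshold), with a summed 53.3 to 68.1 CPM in WT and 80.0 to 112 CPM in KO, and none at 0. Their part in the values of Unc13c and Scg3 was not tested. Markers of macrophages (6 of 7), osteoclasts (4 of 4 tested) and skeletal muscle (4 of 4) were also positive, with 0 past the threshold. Other lists went both ways: endothelial cells (2 positive, 2 negative), odontoblasts (3 and 3, with 1 past the threshold) and ameloblasts (4 and 5). The ablated gene, Wdr72, is among those 5. The secretion and membrane traffic list held 9 tested genes in all, 6 positive and 3 negative, with a median of 0.071. Rab27a, a GTPase of secretory organelles, was at 11, 12.4, 8.50 and 8.59 CPM in WT and at 8.59, 8.63, 7.69 and 8.27 CPM in KO 1, 3, 4 and 5. WT 2 and WT 3 were high, the other WT values lay within the KO range, and the log2 fold change went from -0.29 to -0.17 without WT 3. Lysmd2 stood at 4.70 to 6.04 CPM in WT and 5.37 to 7.0 CPM in KO 1, 3 and 4, and at 11.4 CPM in KO 5. Slc17a5, the lysosomal sialic acid exporter, was at -0.004 (SE 0.15) on the log2 scale, the kinase gene Ick at 0.045 (SE 0.12) and Pigb, of GPI anchor synthesis, at 0.071 (SE 0.17). Tex9 was at -0.25 (SE 0.16).

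The nearest genes after Wdr72 included 3 of the motor and actin list. Fam214a, Arpp19, Myo5a and Myo5c lay 0.67, 0.754, 0.788 and 0.949 Mb from its end. Myo5c, a class V myosin of secretory epithelia, was at 14.1, 15, 10.8 and 13.7 CPM in WT and at 9.79, 10.9, 9.99 and 8.16 CPM in KO 1, 3, 4 and 5. WT 4 lay just below KO 3, and all other WT values lay above KO. Its log2 fold change was -0.46 (SE 0.15; adjusted p = 0.19 in edgeR, 0.039 in voom). Its paralog Myo5a, which carries organelles along actin, was at 83.2, 79.9, 78.1 and 86.2 CPM in WT and at 71.6, 89.0, 77.8 and 45.4 CPM in KO 1, 3, 4 and 5. Here KO 5 stood lowest, KO 1 and KO 4 also lay below WT, and KO 3 lay above it. The log2 fold change went from -0.21 to -0.043 without KO 5.

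Tmod3, which caps the pointed ends of actin filaments, was at 133, 127, 119 and 115 CPM in WT and at 92.4, 107, 109 and 88.8 CPM in KO 1, 3, 4 and 5. All KO values lay below all WT values (log2 fold change -0.32, SE 0.11, adjusted p = 0.22 in edgeR). Without KO 5 the difference was -0.27. Its neighbour and paralog Tmod2 averaged 5.54 ± 0.945 CPM in the WT libraries and 6.35 ± 2.12 CPM in the KO ones (SD over 4 each). Myo1e, a class I myosin, was at 63.9 ± 8.73 and 59.7 ± 8.66 CPM, and Cgnl1, a tight junction protein, at 32.5 ± 2.30 and 37.0 ± 3.41 CPM. Arpp19, an inhibitor of a mitotic phosphatase, was at 102 to 108 CPM in WT and 89.2 to 106 CPM in KO. Lrrc1 differed by 0.30 (SE 0.19) and Fam81a by 0.26 (SE 0.26) on the log2 scale. In all, 4 of the 9 tested genes of this list were positive and 5 negative, with a median of -0.096.

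Fam214a varied more within groups than between them. It was at 89.1, 119, 197 and 122 CPM in WT and at 144, 138, 117 and 80.8 CPM in KO 1, 3, 4 and 5. WT 4 was the highest and KO 5 the lowest, and the log2 fold change of -0.14 (SE 0.23) turned to 0.12 without WT 4. The nearest genes before Wdr72, after Unc13c, were Rsl24d1, a ribosome biogenesis factor, Rab27a, given above, and the transcript 2310009A05Rik. Rsl24d1 was at 23.9 to 26.2 CPM in WT, 23.5 to 25.4 CPM in KO 1, 3 and 4, and 35.9 CPM in KO 5. For 2310009A05Rik the ranges were 6.15 to 6.97 CPM and 5.32 to 6.72 CPM, with 11.8 CPM in KO 5. In Rsl24d1 and 2310009A05Rik KO 5 alone stood apart.

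Cell surface and signalling genes gave 4 positive and 6 negative log2 fold changes, with a median of -0.14. Fam83b, a scaffold protein of epidermal growth factor signalling, was at 23.1, 21.2, 19.0 and 19.5 CPM in WT and at 13.5, 16.4, 16.4 and 4.89 CPM in KO 1, 3, 4 and 5. All KO values lay below WT, and KO 5 was the lowest. The log2 fold change was -0.69 (SE 0.28, adjusted p = 0.28 in edgeR), and -0.42 without KO 5. Oral keratinocyte markers were lower in KO in 13 of 14 cases (median -0.98, 2 past the threshold, none at 0). Their summed level was 13200 to 18400 CPM in WT and 12100 to 21700 CPM in KO, with KO 5 the highest. Their part in the values of Fam83b, Myo5c and Gsta4 was not tested.

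Anxa2, a calcium-dependent membrane-binding protein, was at 654, 662, 605 and 562 CPM in WT and at 590, 559, 595 and 809 CPM in KO 1, 3, 4 and 5. Only KO 5 lay above the WT range, and the log2 fold change of 0.040 (SE 0.15) turned to -0.094 without it. Adam10, a protease that sheds membrane proteins, averaged 121 ± 2.38 CPM in the WT libraries and 104 ± 14.5 CPM in the KO ones. Bnip2 was at 143 ± 10.5 and 128 ± 5.42 CPM, Mapk6, an atypical MAP kinase, at 276 ± 17.5 and 241 ± 40.2 CPM, and Cd109, a co-receptor for TGF-beta, at 33.6 ± 2.94 and 30.9 ± 3.93 CPM. The G protein subunit gene Gnb5 was at 43.4 ± 4.70 and 44.0 ± 2.22 CPM. Bmp5, a bone morphogenetic protein, was at 1.86 ± 0.294 and 2.26 ± 0.738 CPM. Prtg differed by 0.24 (SE 0.24) and Aqp9 by -0.56 (SE 0.59) on the log2 scale. None of these 8 passed in edgeR, DESeq2 or voom.

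Of the transcription and chromatin genes, 8 of 11 were negative, with a median of -0.24 and 0 past the threshold, while 46.9% of all genes tested were negative. Without KO 5, 9 of the 11 were negative and the median was -0.12, against 50.4% of all genes negative. Rora, a nuclear receptor at the far end of the window, was at 30.1, 30, 40.3 and 31.3 CPM in WT and at 28.2, 29.1, 27.9 and 17.9 CPM in KO 1, 3, 4 and 5. Sltm, an RNA-binding protein of the scaffold attachment factor family, was at 86.7, 88.4, 80.0 and 81.8 CPM in WT and at 63.4, 79.2, 78.9 and 64.2 CPM in KO. Tcf12, a basic helix-loop-helix factor of craniofacial development, was at 153, 156, 161 and 162 CPM in WT and at 140, 152, 144 and 94.7 CPM in KO. In these genes all KO values lay below WT, but KO 3 came close to the lowest WT library in each.

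The log2 fold changes were -0.35 (SE 0.16) for Rora, -0.24 (SE 0.11) for Sltm and -0.25 (SE 0.14) for Tcf12. Without KO 5 they were -0.21, -0.19 and -0.12. Rfx7, a winged-helix factor, was at 35.9, 32.6, 32.8 and 35.6 CPM in WT and at 25.4, 33.4, 28.3 and 19.7 CPM in KO 1, 3, 4 and 5, and KO 3 lay within the WT range. Its log2 fold change was -0.36 (SE 0.15), and -0.23 without KO 5. Ice2 and Zfp280d were at -0.26 (SE 0.14) and -0.24 (SE 0.14) on the log2 scale, and the muscle gene Mlip at -0.16 (SE 0.22). Pygo1, a co-activator of Wnt targets, averaged 22.3 ± 3.43 CPM in the WT libraries and 25.9 ± 2.67 CPM in the KO ones. Leo1, of the RNA polymerase II elongation machinery, was at 51.2 ± 4.87 and 51.9 ± 3.0 CPM, and Gtf2a2, a general transcription factor, at 39.4 ± 3.01 and 39.0 ± 5.07 CPM. Polr2m, an RNA polymerase II subunit, was at 142 to 194 CPM in WT and 165 to 207 CPM in KO.

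Protein turnover and translation genes included the most abundant members. Per kb of gene length, the highest were Eef1a1 at 2160 CPM per kb, Anxa2 at 169, Polr2m at 72.5 and Nedd4 at 69.6. Eef1a1, which delivers aminoacyl-tRNA to the ribosome, was at 4760, 5240, 5460 and 5310 CPM in WT and at 5220, 5700, 5340 and 6090 CPM in KO 1, 3, 4 and 5, and the groups overlapped. Processed pseudogenes resembling Eef1a1 make its count uncertain. Nedd4, a ubiquitin ligase, was at 756, 700, 784 and 883 CPM in WT and at 721, 855, 835 and 578 CPM in KO, with KO 5 the lowest. Its log2 fold change was -0.063 (SE 0.15) and 0.041 without KO 5.

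Mindy2, a deubiquitinase, was at 63.2, 61.4, 66.6 and 66.5 CPM in WT and at 47.7, 59.6, 58.6 and 39.0 CPM in KO 1, 3, 4 and 5. Fbxo9, a substrate receptor of a ubiquitin ligase, was at 35.0, 36.9, 36.4 and 38.0 CPM in WT and at 34.6, 31.0, 33.3 and 25.6 CPM in KO. All KO values lay below WT in both, with log2 fold changes of -0.33 (SE 0.13) and -0.23 (SE 0.11) and adjusted p of 0.28 and 0.34 in edgeR. Without KO 5 the log2 fold changes were -0.22 and -0.15. The ubiquitin ligase Rnf111 was at 40.3 ± 1.52 and 37.6 ± 4.99 CPM, the mitochondrial tRNA modifier Mto1 at 13.8 ± 1.07 and 13.2 ± 1.30 CPM, and the cyclin Ccnb2 at 9.75 ± 2.03 and 10.2 ± 2.66 CPM. Over the list 3 of 8 were positive and 5 negative, with a median of -0.064.

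KO 5 was the lowest of all 8 libraries for 30 of the 74 flanking genes (40.5%) and the highest for 14 (18.9%). Over all genes tested it was the lowest for 28.9% and the highest for 31.7%. It stood apart across the transcriptome too, with a mean correlation to the other libraries of 0.971, against 0.984 to 0.987 for the rest. Longer genes were lower in KO 5. Its difference from the mean of KO 1, 3 and 4 had a Spearman correlation of -0.57 (Pearson -0.54) with gene length over the 59 coding flanking genes. Over all 14250 coding genes tested these were -0.60 and -0.59. Without KO 5 the log2 fold change moved by more than 0.2 in 17 of the 74 genes and changed sign in 13. The groups then did not overlap for 15 of 75 flanking genes (20%), 5 higher and 10 lower, against 13.7% of all genes. In edgeR 0 flanking genes passed then, and 55 of all genes did. The median of the motor and actin list went from -0.096 to -0.0015 without KO 5, that of cell surface and signalling from -0.14 to -0.087, and that of secretion from 0.071 to 0.18. That of all 8 genes of the metabolism list went from 0.098 to 0.057.

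**Figure D3:**
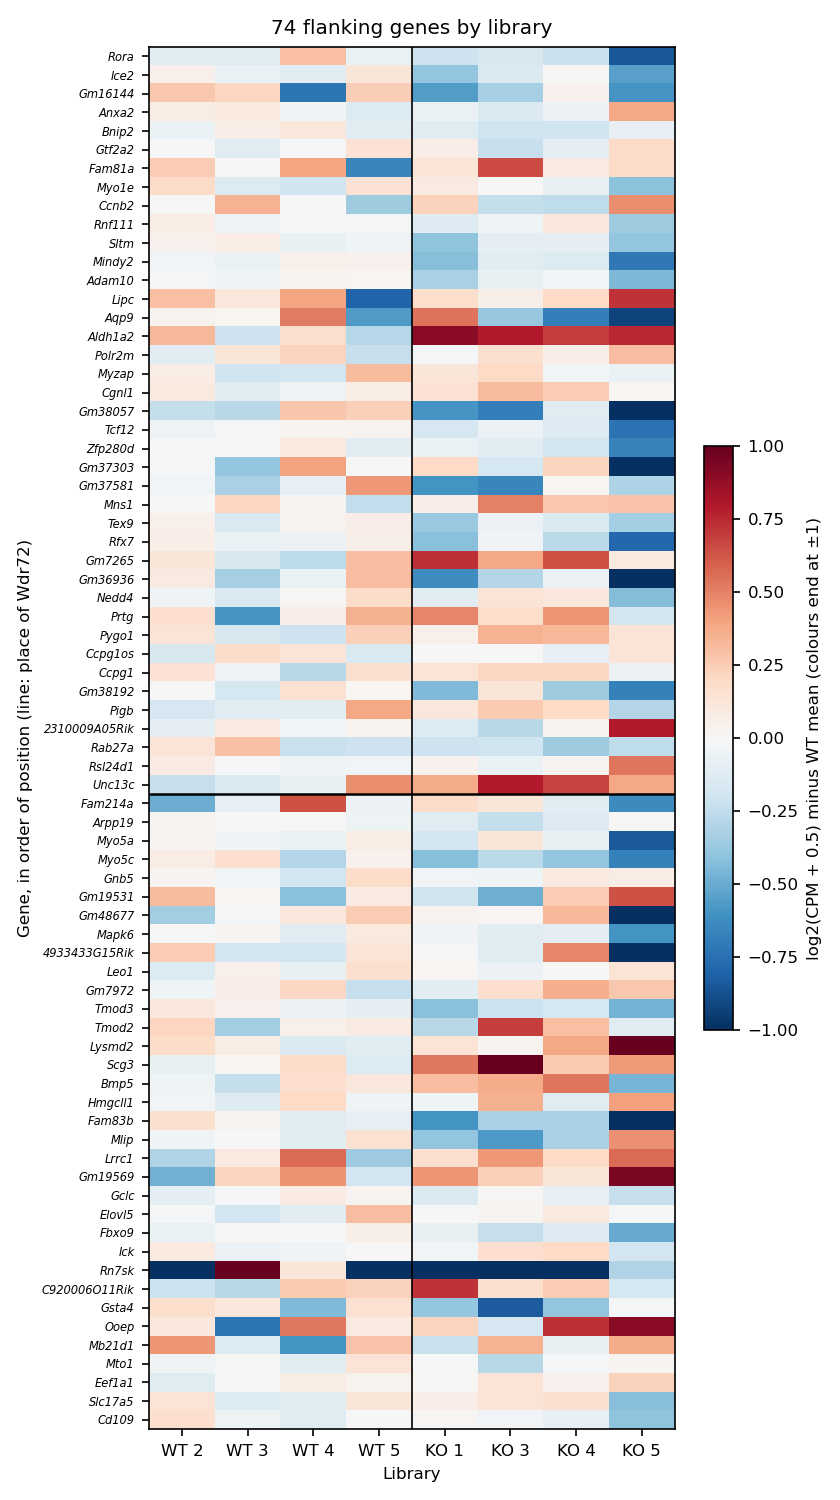
Level of each of 74 flanking genes (rows, in order of position, with a line at the place of Wdr72) in each library (columns), as log2(CPM + 0.5) minus the WT mean, in colours that end at ±1. Aldh1a2 is red in all 4 KO libraries, while many of the blue rows are deepest in KO 5, the lowest library for 30 of the 74 genes.

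Transcripts that the annotation lists as still to be verified (biotype TEC) numbered 7, of which Gm37660 had 6 to 21 reads and did not enter the fit. The 6 tested ones each lay inside a longer gene. Their median on the log2 scale was -0.60, with 5 negative, against a median of -0.32 over all 315 such transcripts tested. KO 5 was the lowest of the 8 libraries in 4 of these 6, and in 60.3% of the 315. Gm36936, inside Nedd4, was at 1.66 CPM in KO 5 and 4.10 to 8.25 CPM in the other 7 libraries. Gm37303, inside Zfp280d, was at 0.10 CPM in KO 5 and 1.0 to 2.09 CPM elsewhere. Of the 6, only Gm38192 lies on the strand opposite to its host gene, Pigb. The strand setting of the counting is not given in the sources used here, so its reads cannot be told apart from those of Pigb. The others lie on the strand of their host genes, so strand could not separate their reads from those of the hosts under any setting.

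**Figure D4:**
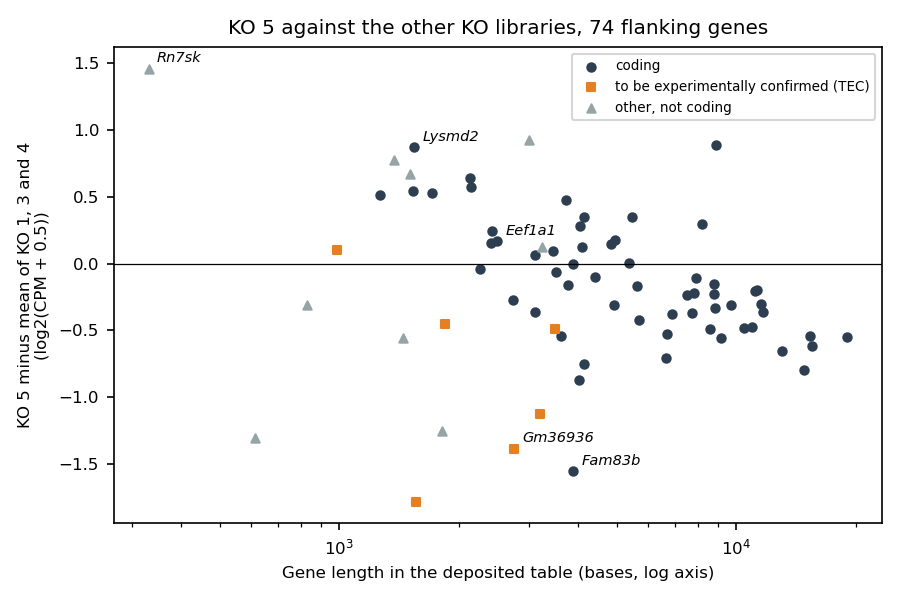
Difference between KO 5 and the mean of KO 1, 3 and 4, in log2(CPM + 0.5) (vertical axis), against gene length in bases on a log axis for 74 flanking genes, by biotype. Coding genes run from above 0 at short lengths to below 0 at long ones (Spearman -0.57 over 59 genes), and 5 of the 6 TEC transcripts lie below 0.

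Overlap touched 14 flanking genes, each covered by another gene with over 10% as many reads, and in 12 the other gene had more reads. Among the coding members these 12 held Mns1 and Ccpg1, which was at only 0.458 ± 0.131 and 0.539 ± 0.0857 CPM. The remaining coding members, in none of the lists, were Myzap, Ccpg1os, Ooep and Mb21d1, the last encoding the DNA sensor cGAS. Their log2 fold changes ran from 0.006 to 0.51, and none passed in any of the tests run. The other members that do not code for protein were 3 antisense transcripts, 2 lincRNAs, 2 processed transcripts, 1 pseudogene and Rn7sk.

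Rn7sk, a small nuclear RNA that restrains transcription elongation and is made by RNA polymerase III, had the largest fitted difference of the 74. It was at 3.10, 103, 12.1 and 3.33 CPM in WT 2, 3, 4 and 5, and at 2.57, 2.66, 3.59 and 8.89 CPM in KO 1, 3, 4 and 5. WT 3 alone stood far above the rest, and the groups overlapped. The log2 fold change was -2.78 (SE 1.13, adjusted p = 0.29 in edgeR), and -0.49 without WT 3. The RNA lacks a poly(A) tail, and poly(A) capture preceded sequencing. It was singled out after its values were seen.

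At the edge of the read threshold, Gm37660 and Gm38192 had 10 or more reads in exactly 4 libraries and were kept. Gm8116, with 3 to 11 reads per library, reached 10 in only 3 and was left out, as were 94 rows without a read. Of the 82 coding genes in the window 59 were kept. Just outside the window, the nearest measured genes were Vps13c, with mean CPM of 47.7 (WT) and 33.5 (KO), and Col12a1, with 350 and 515. Inside it, the outermost were Rora, described above, and Cd109.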

How the data were processed

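The authors deposited 1 table of raw read counts per Ensembl gene, with gene lengths in bases, coordinates and biotypes. Per the labels' protocols, RNA went through poly(A) capture. The submitters' processing notes name CASAVA and mm39. The coordinates are those of GRCm38: 98.8% of the starts matched GENCODE M21, including all 76 members. Aligner, counting program and strand setting: not given in the sources used here.

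Libraries held 17084475 to 21887462 counted reads. Groups were compared by the quasi-likelihood test of edgeR (version 4.0.16 under R 4.3.3, TMM scaling, robust dispersion, filterByExpr at a minimum count of 10), fitted on all 16205 genes kept, two-sided, with Benjamini-Hochberg adjustment over all of them. SE was derived from the log2 fold change and its F statistic. DESeq2 1.42.0 and limma voom with quality weights (limma 3.58.1) were alternatives, with other scalings, no filter, a replicate block and libraries left out. The edgeR step was tested on simulated data.

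Named genes were AI593442, members past 0.05 in any of the 3 tools, up to 12 coding members whose groups did not overlap, the 4 nearest on each side, the 4 highest per kb, and listed members at an unadjusted p under 0.05. The other members are given more briefly. Members and lists were chosen with earlier results of these data known.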

Additional observations from a re-analysis of the deposited data

Results flagged for a closer look

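In 7 of 52 groups of 4 libraries, over Wdr72, AI593442 and the other genes given in every library, 1 library stood far from the rest. The genes were named with results of these data known and share the same libraries, so this count is a description. Rn7sk was at 103 CPM in WT 3 and at 8.89 CPM in KO 5. KO 5 also stood apart in Rora at 17.9 CPM, in Rsl24d1 at 35.9 CPM and in Anxa2 at 809 CPM. WT 4 stood apart in Rora at 40.3 CPM and in Gsta4 at 44.7 CPM.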

How the results depend on the processing

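The count of flanking genes past an adjusted p of 0.05 was 0 with both other scalings, with the replicate block, and without each library in turn (0 to 0). It was 1 in DESeq2 and 1 without the low-count filter, Aldh1a2 in both, and 4 in voom (Aldh1a2, Unc13c, Myo5c and Gsta4). Without the filter 241 of all 31876 genes were called. DESeq2 called 2.93% of all genes with an adjusted p, and voom 6.57% of all genes tested. Genes whose groups did not overlap numbered 7 to 10 with other scalings or no filter, 10 to 16 without 1 library (16 without WT 4, 15 without KO 5), and 22 without KO 1 and KO 5 together. As shares these last 3 were 21.3%, 20% and 29.3%, against 15.4%, 13.7% and 21.3% of all genes. Leaving out WT 2, WT 3 or WT 5, the shares were 13.3%, 16.2% and 16%, against 13.2%, 13.8% and 18.1%. Leaving out KO 1, KO 3 or KO 4, they were 13.5%, 17.6% and 16%, against 13.8%, 17.8% and 15.2%. With the scaling of DESeq2, library totals and no filter, they were 12.2%, 13.5% and 9.33%, against 10.8%, 10.3% and 6.7%. That count was not recomputed for DESeq2, voom or the block, since it rests on CPM and not on their estimates. The median log2 fold change stayed between -0.085 and -0.0029. For Wdr72 the log2 fold change was -2.44 in DESeq2 (adjusted p = 0.0055), -2.62 in voom (adjusted p = 0.024), -3.42 with the replicate block (adjusted p = 0.037) and -3.21 to -2.15 without 1 library. Its adjusted p was 0.234 without the low-count filter, 0.084 and 0.0873 with the other scalings, 0.0564 without KO 1 and KO 5, and 0.0116 (without KO 1) to 0.311 (without WT 3) without 1 library. Whole profiles correlated at a mean of 0.971 to 0.987 per library, and the values for pairs given next are another measure. Same-numbered libraries gave correlations of -0.165, -0.107 and -0.152 for numbers 3, 4 and 5, and differently numbered ones -0.279 to 0.327. So few pairs cannot settle whether the numbers pair the libraries. The block left 1 gene called over all genes, against 5 without it. Number 1 occurs only in KO and number 2 only in WT. With the block the group difference therefore rests on the libraries numbered 3, 4 and 5. KO 1, the KO library with the most Wdr72 reads, thus has no weight in the Wdr72 value of -3.42.

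Of 360 values of the tested named genes under alternatives, 337 kept direction and side of the threshold, 6 newly passed and 17 changed sign, each in a gene that passed in no tool. The 15 values of AI593442, which had no test, kept their direction. In voom the signs turned for 2310009A05Rik (-0.083), Fam214a (0.098), Anxa2 (-0.11) and Nedd4 (0.10). Without KO 5 they turned for 2310009A05Rik (-0.13), Fam214a (0.010), Anxa2 (-0.094) and Nedd4 (0.041). Without KO 1 and KO 5 they turned for Rsl24d1 (-0.017), 2310009A05Rik (-0.13), Myo5a (0.024), Anxa2 (-0.11) and Nedd4 (0.11). Without WT 5 they turned for Anxa2 (-0.0042) and Nedd4 (0.00099), with library totals for Anxa2 (-0.015), and without WT 4 for Fam214a (0.12). Without 1 library in turn these ran from -0.13 to 0.298 for 2310009A05Rik, -0.294 to 0.12 for Fam214a, -0.094 to 0.0901 for Anxa2 and -0.14 to 0.041 for Nedd4. Genes with few reads, such as Unc13c at 6 to 26 per library, have limited precision.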

Other observations

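Genes around AI593442 were looked at after its values were seen. Within 1 Mb of its start 13 other genes were tested, and 0 had an adjusted p under 0.05 in edgeR. DESeq2 called 1 of the 13 (2.93% of all genes with an adjusted p) and voom 2 (6.57% of all genes tested). The groups did not overlap in 6 of them (46.2%), 5 lower and 1 higher in KO, against 10.9% of all genes tested. Without KO 5 the count was again 6, against 13.7% of all genes. Zc3h12c, which encodes a CCCH zinc finger protein, averaged 34.9 CPM in the WT libraries and 21.4 CPM in the KO ones (adjusted p = 0.11 in edgeR, log2 fold change -0.71, SE 0.17). Atm, the DNA damage kinase, was at 27.3 and 16 CPM (log2 fold change -0.77, SE 0.23, adjusted p = 0.17), and -0.56 without KO 5. Exph5, an effector of Rab27 proteins, was at 16.1 and 9.60 CPM, and Cul5, a cullin of ubiquitin ligases, at 50.5 and 42.2 CPM. These 4 genes went the opposite way to AI593442.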
